A study of Mus musculus with 10 samples.

Results

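TADs of 1 Mb and longer were taken from the deposited TAD lists of 10 libraries made by exo-Hi-C from mouse embryonic stem cells. They were chosen by length alone, as the lines whose end lay at least 1 Mb beyond their start. The rule took 1501 of 41342 TADs, or 3.63%. TAD ends fell on the edges of 10 kb bins, so that the shortest TAD taken was 1.01 Mb long and the longest 2.00 Mb, a length reached by 37 TADs and passed by none in the lists. The 46 TADs of 1.01 Mb just inside the limit had a median score of 1.78, and the 47 TADs of 1.00 Mb just outside it a median score of 1.75. The 1501 TADs had a median length of 1.32 Mb, with 522 under 1.2 Mb and 492 of 1.5 Mb or more.

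A topologically associating domain, or TAD, is a stretch of a chromosome whose parts contact one another more often than they contact the neighbouring stretches. In mammalian cells many TADs form when cohesin extrudes a loop of chromatin until it meets CTCF bound at the loop's base, and genes and their enhancers tend to contact each other within them. TADs are nested, so that the same stretch may be listed as 1 long TAD or as several smaller ones, and long TADs are often found in gene-poor chromatin.

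The cells were of the line ES-E14TG2a, a feeder-independent mouse embryonic stem cell line, grown on gelatin with LIF and the inhibitors CHIR99021 and PD0325901. There were 2 libraries for each of 5 genotypes. E1-KO lacks the enhancer E1, E2-KO lacks E2, E3-KO lacks E3, E1&E3-dKO lacks both E1 and E3, and WT carries all of them. Where the enhancers lie is not in the labels, nor is it said that the libraries of a genotype were grown separately. The p-values therefore measure only how far these libraries spread. The libraries come from the same cell line and share its genome, so that their spans are not independent between libraries. Exo-Hi-C joins DNA ends that lie close in the nucleus and then removes linear DNA with exonucleases.

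E2-KO replicate 1 stood apart, with 7962 TADs where the other 9 libraries had between 2715 and 4871, and results that rest on it are given with and without it. The titles of 4 libraries begin with w326 (both E2-KO libraries, E3-KO replicate 2 and WT replicate 1), which the other 6 titles lack. The number of reads per library is unknown from the files. A relative depth recovered from the interaction lists, as the contacts expected for bins of 10 kb that lie 1 Mb apart, was lowest in E2-KO replicate 1 (0.0141) and highest in E1-KO replicate 1 (0.231). Positions are in mm9, in Mb, and no gene is assigned to them.

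The number of long TADs differed widely between libraries, also between those of one genotype. E1-KO had 236 and 208 long TADs, E2-KO had 19 and 149, E3-KO 200 and 69, E1&E3-dKO 177 and 106, and WT 167 and 170. Both E1-KO libraries were above both WT libraries and both E2-KO libraries below them, while E3-KO and E1&E3-dKO each had 1 library above and 1 below. E1-KO averaged 222 ± 19.8, E2-KO averaged 84 ± 91.9, E3-KO averaged 134.5 ± 92.6, E1&E3-dKO averaged 141.5 ± 50.2 and WT averaged 168.5 ± 2.12 long TADs (SD, n = 2 each). The E1-KO mean was thus 1.32 times the WT mean, the E2-KO mean 0.499, the E3-KO mean 0.798 and the E1&E3-dKO mean 0.840 times. An exact permutation test over all pairings of the libraries, which asks whether libraries of a genotype lie closer than other pairs, gave p = 0.329 for the number (one-sided, adjusted p = 0.447 over 15 tests).

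**Figure D1:**
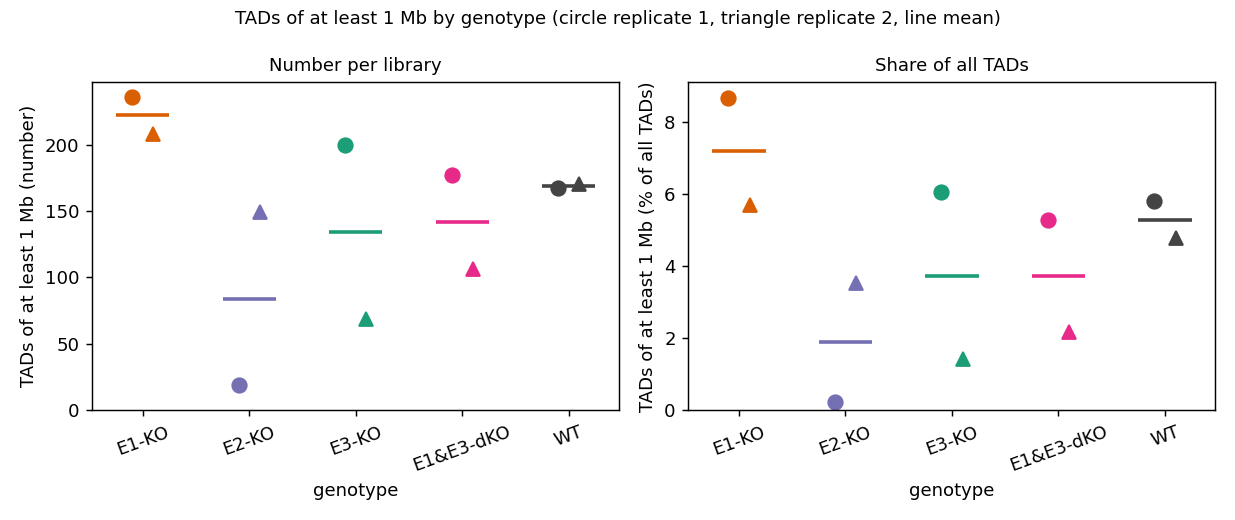
Number of TADs of at least 1 Mb per library (left) and their share of all TADs of the library in % (right), by genotype; circles are replicate 1, triangles replicate 2 and lines the mean of both. The E1-KO libraries, with 236 and 208, lie above the WT libraries, with 167 and 170, and the 2 libraries of every other knockout lie far apart.

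As a share of all TADs of the library, long TADs made up 8.69% and 5.70% (E1-KO), 0.239% and 3.53% (E2-KO), 6.06% and 1.42% (E3-KO), 5.29% and 2.18% (E1&E3-dKO), and 5.80% and 4.79% (WT). On this scale E1-KO replicate 2 lay below WT replicate 1, so that E1-KO and WT overlapped, and only E2-KO had both libraries below both WT libraries. The same test of genotypes gave p = 0.358 for the share (exact, one-sided, adjusted p = 0.447). The 8 knockout libraries averaged 4.14 ± 2.80% against 5.30 ± 0.715% in the 2 WT libraries (SD), a difference of -1.16 percentage points (exact permutation over 45 choices, two-sided, p = 0.622, adjusted p = 0.667). When each library was left out in turn, this difference lay between -1.81 (without E1-KO replicate 1) and -0.60 points (without E2-KO replicate 1). An exact test of 2 libraries against 2 cannot reach 0.05, and each knockout is therefore set against WT by its values only.

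The difference between knockouts and WT ran in opposite directions within the titles. Among libraries titled w326, 3 knockout libraries had a mean of 79 long TADs against 167 in 1 WT library. Among the other titles, 5 knockout libraries had a mean of 185.4 against 170 in 1 WT library. On the log2 scale the knockouts lay 0.52 lower over all libraries (p = 0.622, exact, two-sided, adjusted p = 0.667), and 0.15 lower without E2-KO replicate 1 (p = 0.833, exact).

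Libraries with more TADs had fewer long ones. Over the 10 libraries the number of long TADs and the number of all TADs had a Pearson r of -0.907 (permutation p = 0.0003, adjusted p = 0.0045 over 15 tests) and a Spearman rho of -0.794 (permutation p = 0.00863). Without E2-KO replicate 1 and E1&E3-dKO replicate 2, the libraries farthest from the median, r was -0.840 (permutation p = 0.0103) and rho -0.619 (permutation p = 0.114). Within the 6 libraries of the other titles r was -0.923 (permutation p = 0.0221), and the 4 libraries titled w326 are too few for a value. Both counts come from one list, and a stretch listed as a single long TAD leaves no room in it for smaller ones. No long TAD contained another TAD of its library in any of the 10 lists.

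The number of long TADs also moved with the recovered depth. Depth, in contacts per pair, was 0.231 and 0.107 (E1-KO), 0.0141 and 0.0783 (E2-KO), 0.159 and 0.0682 (E3-KO), 0.105 and 0.0635 (E1&E3-dKO), and 0.180 and 0.199 (WT). Pearson r with the number of long TADs was 0.806 (permutation p = 0.00439) and Spearman rho 0.794 (permutation p = 0.00869), both with an adjusted p of 0.00869 over the 4 coefficients of this kind. Without E1-KO replicate 1 and WT replicate 2, which are farthest from the median depth, r was 0.799 (permutation p = 0.0172), and within the 6 libraries of the other titles it was 0.684 (permutation p = 0.128). In each of the 5 genotypes the library with the lower depth had the fewer long TADs, in WT by 167 against 170 only. The part of depth in the genotype values was not tested.

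**Figure D2:**
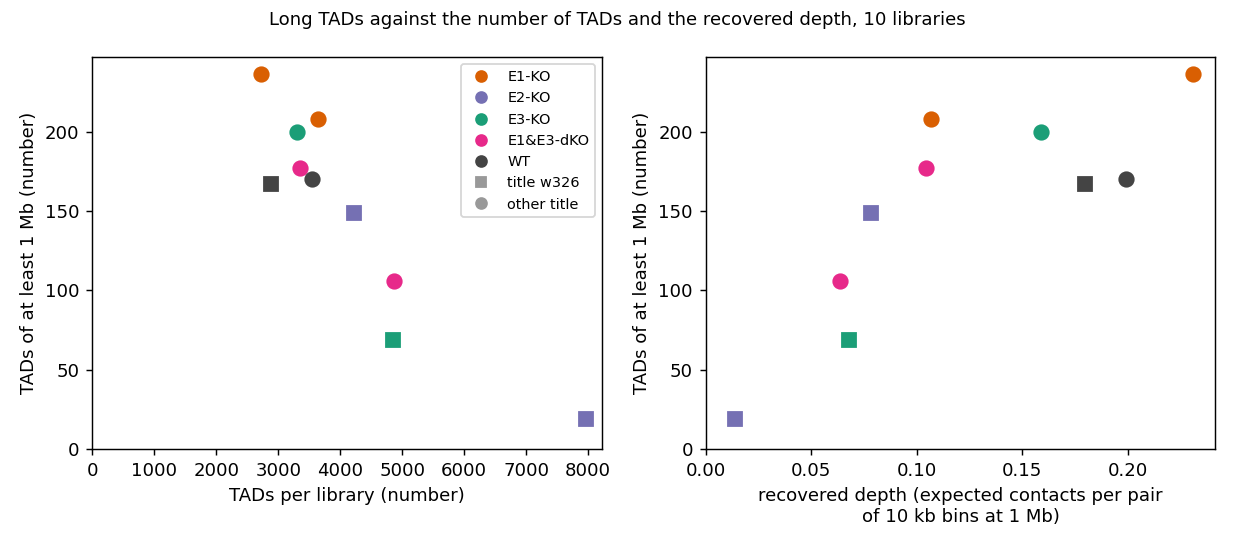
Number of TADs of at least 1 Mb per library against the number of all TADs (left) and against the recovered depth, in expected contacts per pair of 10 kb bins at 1 Mb (right); each point is a library, coloured by genotype, and squares mark titles that begin with w326. E2-KO replicate 1 lies at 7962 TADs, a depth of 0.0141 and 19 long TADs.

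After a line of the log2 number of long TADs on the log2 number of all TADs, the residual was -0.29 and 0.48 (E1-KO), -0.46 and 0.46 (E2-KO), 0.10 and -0.19 (E3-KO), -0.03 and 0.44 (E1&E3-dKO), and -0.60 and 0.10 (WT). Each genotype then had 1 library above the line and 1 below it. The knockouts were on this scale 0.32 above WT, where the plain number was lower (exact permutation, two-sided, p = 0.356).

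Long TADs covered between 24.28 Mb in E2-KO replicate 1 and 335.7 Mb in E1-KO replicate 1. Their share of the DNA inside TADs was 30.7% and 25.6% (E1-KO), 2.32% and 18.8% (E2-KO), 24.4% and 9.12% (E3-KO), 22.4% and 13.9% (E1&E3-dKO), and 22.5% and 20.6% (WT). Libraries with few long TADs also had shorter ones among them. The median length of long TADs was 1.37 and 1.35 Mb in E1-KO (1370 and 1350 kb), and 1200 kb in E2-KO replicate 1 and 1230 kb in E3-KO replicate 2, against 1320 kb in both WT libraries.

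Long TADs had slightly higher scores than the shorter TADs of the same library. The score is the authors' own value for each TAD, never under 1.5 in the lists. Median scores of long TADs were 1.722 and 1.7565 (E1-KO), 2.363 and 1.76 (E2-KO), 1.707 and 1.757 (E3-KO), 1.712 and 1.824 (E1&E3-dKO), and 1.664 and 1.7085 (WT). The shorter TADs had medians from 1.667 in WT replicate 1 to 2.051 in E2-KO replicate 1. The long TADs were higher in 9 of 10 libraries, WT replicate 1 being the exception, by a mean of 0.07 (exact sign-flip permutation over libraries, two-sided, p = 0.00391, adjusted p = 0.0195). Without E2-KO replicate 1 the mean difference was 0.04, with an adjusted p of 0.0293 in the exact test. The call was lost on autosomes alone (adjusted p = 0.0659) and for TADs of at least 1.2 Mb (adjusted p = 0.124), both exact tests.

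Between genotypes, the scores of long TADs did not pass the test (p = 0.237, exact over all pairings, adjusted p = 0.444). The knockout libraries averaged 1.83 ± 0.22 against 1.69 in WT (n = 8 and 2), a difference of 0.14 (exact, two-sided, p = 0.244, adjusted p = 0.444). Without E2-KO replicate 1 the difference was 0.06 (p = 0.139, exact). Every knockout library but E3-KO replicate 1 lay above both WT libraries, and E3-KO replicate 1, at 1.707, lay between them.

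The 3 highest scores among long TADs were all in E2-KO replicate 1, on chromosome 17 at 7.16 to 8.36 Mb (score 11.072), on chromosome 13 at 22.15 to 23.35 Mb (4.545) and on chromosome Y at 0.96 to 2.04 Mb (4.394). In the other libraries the highest score of a long TAD was between 2.953 and 3.604. Among the 37 TADs of 2.00 Mb the highest scores were on chromosome 10, at 79.13 to 81.13 Mb in E1&E3-dKO replicate 2 (2.148) and at 126.34 to 128.34 Mb in both E1&E3-dKO libraries (1.922 and 2.054).

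Long TADs were unevenly spread over the chromosomes. Their share of the TADs of a chromosome, averaged over the 10 libraries, was highest on chromosomes 13 (8.47 ± 4.45%), 12 (8.31 ± 4.88%), 14 (7.67 ± 4.55%) and 16 (7.36 ± 3.83%), and lowest on chromosome 11 (1.62 ± 0.835%, SD over libraries). Chromosome Y was left out of this order, since it had TADs in only 5 libraries and at most 2 in any of them. The wide SDs follow the spread in number between libraries. On the X chromosome the share was 2.32 ± 2.39%, against 4.56 ± 2.57% on the autosomes of the same libraries. It was lower on X in 10 of 10 libraries, by a mean of 2.25 percentage points (exact sign-flip permutation, two-sided, p = 0.00195, the smallest this design can give, adjusted p = 0.0146). Without E2-KO replicate 1, which had no long TAD on X, the adjusted p was 0.0195 (exact).

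Long TADs on X numbered 14 and 6 (E1-KO), 0 and 4 (E2-KO), 8 and 1 (E3-KO), 6 and 4 (E1&E3-dKO), and 8 and 6 (WT). The median length of all TADs on X was between 90 and 165 kb, and on the autosomes between 90 and 270 kb. It was shorter on X in all libraries but E2-KO replicate 1, where both were 90 kb, so that the lower share of long TADs on X went with shorter TADs there. The depth and copy number of X beside the autosomes were not measured, and their part in both was not tested.

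**Figure D3:**
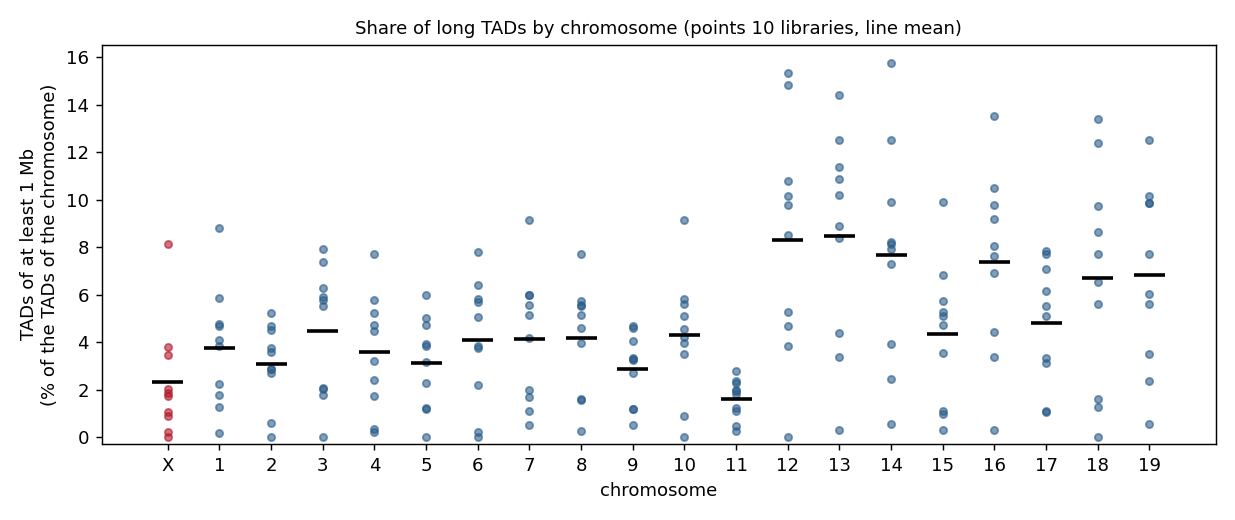
Share of TADs of at least 1 Mb among the TADs of each chromosome, in %; points are the 10 libraries and lines their mean, with X first and chromosome Y left out. Chromosomes 12, 13 and 14 have the highest means (8.31, 8.47 and 7.67%), and chromosome 11 and X the lowest (1.62 and 2.32%).

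The 1501 TADs came down to 390 distinct spans once TADs that overlapped each other by at least 80% of both lengths were counted as one. A span is called whole in a library where any TAD of that library, of whatever length, overlaps it this well. Of the 390 spans, 93 (23.8%) were whole in a single library, where 71.4% of all 21046 distinct TADs were. At the other end 167 (42.8%) were whole in at least 5 libraries against 11.4% of all distinct TADs, 72 (18.5%) in at least 8 against 5.18%, and 7 (1.79%) in all 10 against 1.2%. The share in all 10 libraries was thus close to that of all TADs. An overlap of 80% allows a larger shift of the ends in a long span, and these shares are a description with no test. E2-KO replicate 1 listed 7962 TADs and only 19 long ones. It therefore weighs more in the shares of all TADs than in those of long spans. The shares were not recomputed without it.

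The spans whole in at least 8 libraries were the shorter and higher-scoring ones. Their median length was 1.13 Mb and the median of their mean scores 1.87, while the 93 spans of a single library had a median length of 1.29 Mb and a median score of 1.59. The 95 spans whole in 5 to 7 libraries, with a median score of 1.68, and the 130 in 2 to 4 libraries, with 1.67, lay between them in score. Their median lengths were 1.34 and 1.295 Mb, so that only the most recurrent spans were shorter. Chromosomes 12 and 13 held 8 each of the 72 most recurrent spans, chromosome 14 held 7, and X none.

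The 5 spans that led by recurrence and score were whole in all 10 libraries, where a TAD somewhat under 1 Mb counts as well if it covers 80% of the span. The one on chromosome 14 at 19.02 to 20.25 Mb had scores of 3.003 and 2.948 (E1-KO), 3.447 and 3.067 (E2-KO), 3.268 and 2.948 (E3-KO), 2.894 and 2.818 (E1&E3-dKO), and 2.897 and 3.296 (WT). The one on chromosome 9 at 3.07 to 4.51 Mb scored 2.955 and 2.942 (E1-KO), 3.882 and 3.215 (E2-KO), 2.586 and 2.673 (E3-KO), 2.817 and 2.788 (E1&E3-dKO), and 2.756 and 3.022 (WT). In each of these spans E2-KO replicate 1 had the highest score and the knockout scores lay on both sides of the WT scores. The TADs of both these spans were 1 Mb or longer in 10 of 10 libraries. The other 3 lie on chromosome 9 at 60.75 to 61.76 Mb and at 78.48 to 79.6 Mb and on chromosome 4 at 94.64 to 95.65 Mb, with scores between 1.841 and 2.655. Their TADs reached 1 Mb in 4, 7 and 1 of the 10 libraries.

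Libraries of a genotype shared slightly more of their long TADs than libraries of different genotypes did. The mean share of long TADs found whole in the other library was 77.8% for E1-KO, 33.3% for E2-KO, 61.2% for E3-KO, 55.7% for E1&E3-dKO and 70.6% for WT. Over the 5 pairs within genotypes it was 59.7 ± 17.0%, and over the 40 pairs between genotypes 55.9 ± 15.9% (SD), a difference of 3.81 percentage points (exact permutation over all pairings, one-sided, p = 0.00529, adjusted p = 0.0198). The difference is small beside the spread of the pairs, and it did not hold within every title. Among libraries titled w326 the 1 pair within a genotype, that of E2-KO, shared 33.3%, against 47.2% for 5 pairs between genotypes. Among the other titles 2 pairs within genotypes shared 66.7%, against 64.5% for 13 pairs between them. Where 1 library of the pair was titled w326, 2 pairs within genotypes shared 65.9%, against 52.8% for 22 pairs between them.

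The call on shared long TADs was lost when any 1 library other than E2-KO replicate 2 was left out, with adjusted p between 0.196 (without E2-KO replicate 1, 3.49 points) and 0.595 (without E1-KO replicate 1, 0.80 points) in the exact test. Without E2-KO replicate 2 it was 11.8 points with an adjusted p of 0.0195 (exact). Leaving out a library also takes its genotype's pair out of the pairs within genotypes. That of E2-KO, at 33.3%, was the lowest of these. Without E2-KO replicate 2 that pair is gone, while the pairs of E2-KO replicate 1 with other genotypes (17.7% to 40.2%) remain. The part of a single library cannot be told from these values.

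Long spans were split into smaller TADs most often in the libraries with the most TADs. A span is called split in a library where it is not whole and at least 2 TADs lie in it with 80% of their own length. Of the 390 spans, 363 were split in at least 1 library. Whole spans numbered 255 and 225 (E1-KO), 22 and 163 (E2-KO), 216 and 79 (E3-KO), 195 and 123 (E1&E3-dKO), and 181 and 196 (WT). Split spans numbered 20 and 58 (E1-KO), 339 and 106 (E2-KO), 51 and 181 (E3-KO), 55 and 150 (E1&E3-dKO), and 27 and 59 (WT). The 4 libraries with the fewest whole spans, E2-KO replicate 1, E3-KO replicate 2, E1&E3-dKO replicate 2 and E2-KO replicate 2, were those with the most split ones.

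**Figure D4:**
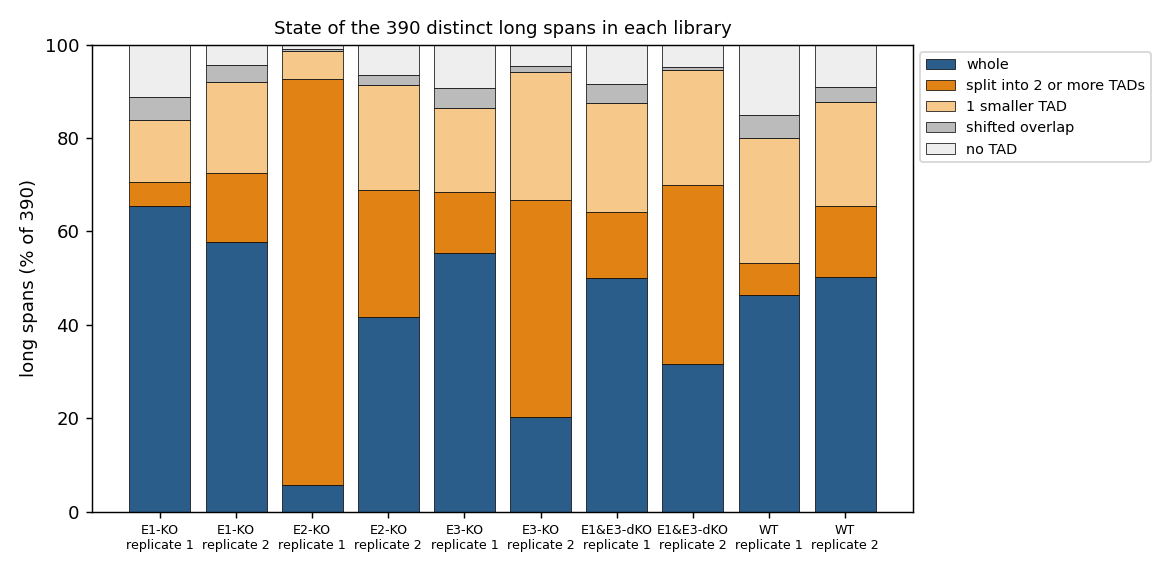
State of the 390 distinct spans of at least 1 Mb in each library, in % of the spans: whole, split into 2 or more TADs, holding 1 smaller TAD, overlapped by a TAD that is shifted, or without a TAD. Whole spans make up 65.4% in E1-KO replicate 1, while E2-KO replicate 1 has 5.64% whole and 86.9% split.

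To keep a library from being set against itself, the spans of other genotypes alone were counted as well. Whole then were 64.6% and 58.3% (E1-KO), 4.51% and 40.6% (E2-KO), 53.1% and 20.6% (E3-KO), 49.3% and 30.2% (E1&E3-dKO), and 46.9% and 49.1% (WT). Both E1-KO libraries lay above both WT libraries and both E2-KO libraries below. Genotypes did not pass the test for whole spans (exact over all pairings, p = 0.304, adjusted p = 0.447) or for split spans (p = 0.267, exact, adjusted p = 0.444). The knockouts averaged 40.2 ± 20.5% whole against 48.0% in WT (n = 8 and 2), a difference of -7.83 percentage points (exact, two-sided, p = 0.711, adjusted p = 0.711), which was -2.79 points without E2-KO replicate 1. Among the libraries titled w326 the knockouts averaged 21.9% against 46.9% in WT, and among the other titles 51.1% against 49.1% in WT.

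A split span held a median of 4 TADs in E2-KO replicate 1 and at most 10, and a median of 2 or 3 in the other libraries. These smaller TADs covered between 32.3% (E3-KO replicate 2) and 48.9% (E1-KO replicate 1) of the split spans, so that most of a split span lay outside these TADs. Both ends of the long span were kept as TAD ends, within 25 kb, in 59 of 339 split spans of E2-KO replicate 1, 50 of 181 in E3-KO replicate 2 and 38 of 150 in E1&E3-dKO replicate 2, against 7 of 27 and 13 of 59 in WT.

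The ends of long TADs were found again in other genotypes more evenly across libraries than those of shorter TADs. On average 60.5% to 71.3% of the ends of long TADs had a TAD end within 25 kb in a library of another genotype, against 22.1% (E2-KO replicate 1) to 68.2% (E1-KO replicate 1) of the ends of shorter TADs. The share was higher for long TADs in 8 of 10 libraries, by a mean of 12.3 percentage points (exact sign-flip permutation, two-sided, p = 0.0254), which did not pass after adjustment (adjusted p = 0.0762). The exceptions were E1-KO replicate 1 and WT replicate 1, the libraries with the fewest TADs.

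The deposited interactions are pairs of 10 kb bins that the authors listed for their contact count. The interaction ends per Mb of long TADs numbered 0.217 and 0.167 (E1-KO), 3.62 and 0.389 (E2-KO), 0.401 and 0.812 (E3-KO), 0.550 and 4.45 (E1&E3-dKO), and 0.628 and 0.238 (WT). Shorter TADs of the same libraries held between 0.382 (WT replicate 2) and 5.07 (E1&E3-dKO replicate 2) ends per Mb. Long TADs had fewer ends per Mb in 9 of 10 libraries, by a mean of 0.405 (exact sign-flip permutation, two-sided, p = 0.0391, adjusted p = 0.0977). The exception was E2-KO replicate 1, and without it the mean difference was -0.528 (adjusted p = 0.0195, exact). Of the 88 interaction ends in long TADs of E2-KO replicate 1, 41 lay in 1 TAD, on chromosome 17 at 7.16 to 8.36 Mb. Interactions with both ends in the same long TAD numbered 75 in all, where 3825 interactions under 2 Mb were listed. E2-KO replicate 1 had 17 of them, 11 in that TAD on chromosome 17. Long TADs held 2.32% to 30.7% of the DNA inside TADs, and the same count was not made for shorter TADs.

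Set against WT alone, most spans that were whole in both WT libraries were whole in 6 of the 8 knockout libraries too, E2-KO replicate 1 and E3-KO replicate 2 being the exceptions. Of these 133 spans, the E1-KO libraries kept 119 and 116 whole, the E2-KO libraries 11 and 93, the E3-KO libraries 115 and 64, and the E1&E3-dKO libraries 111 and 71. In the other direction, of the 187 spans whole in both E1-KO libraries, 132 and 134 were whole in WT. Likewise 12 and 13 of 15 spans of E2-KO, 66 and 67 of 72 of E3-KO, and 72 and 71 of 87 of E1&E3-dKO were whole in WT. These lists are of unequal size, and all of the comparisons use the same WT libraries.

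A span is called lost in a knockout where it was whole in both WT libraries and in neither knockout library, and gained in the reverse case. The backgrounds are the same calls over all distinct TADs of the 4 libraries. Only a span whole in both WT libraries can be lost, and long spans recurred more often than all distinct TADs. Over the 10 libraries 71.4% of all distinct TADs were whole in 1 library only, against 23.8% of the long spans. The share open to a call thus differs between the long spans and the background. In E1-KO 31 of 338 long spans (9.17%) were gained, against 2.87% of all TADs, and 8 (2.37%) were lost, against 3.53%. In E2-KO 1 of 283 (0.353%) was gained, against 1.65% of all TADs, and 40 (14.1%) were lost, against 2.92%. E1-KO thus had more gained and E2-KO more lost long spans than the background, as the numbers of long TADs in their libraries already give. The 40 spans of the 133 that were not whole in E2-KO replicate 2 are the same 40. E2-KO replicate 1 kept only 11 of the 133 whole, so that the count was set by E2-KO replicate 2 alone.

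In E3-KO 1 of 286 long spans (0.35%) was gained, against 2.47% of all TADs, and 16 (5.59%) were lost, against 2.17%. In E1&E3-dKO 9 of 303 (2.97%) were gained, against 2.16%, and 16 (5.28%) were lost, against 3.07%. With 2 libraries on each side none of these calls has a test, and their part that goes with depth was not tested. Over all 8 knockout libraries together no long span was gained, against 0.0095% of all TADs, and 1 of 390 (0.256%) was lost, against 0.119%. This span lies on chromosome 15 at 46.82 to 48.66 Mb and had scores of 1.506 and 1.519 in WT, close to the lowest score listed. It was split in 4 knockout libraries, held 1 smaller TAD in both E1&E3-dKO libraries and had no TAD inside it in E1-KO replicate 1 or E3-KO replicate 1. In E3-KO replicate 1 the next TAD, at 48.65 to 49.41 Mb, shared 1 bin with it.

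Among spans gained in E1-KO, the one on chromosome 19 at 39.05 to 40.27 Mb had the highest mean score. It was whole in both E1-KO libraries (2.066 and 2.033), and every other library, WT included, had 1 smaller TAD in it. The next were on chromosome X at 70.18 to 71.88 Mb (2.082 and 2.012) and on chromosome 14 at 40.28 to 42.15 Mb (1.917 and 2.171). The X span was also whole in E3-KO replicate 1 (2.027) and in both E1&E3-dKO libraries (2.086 and 2.349), and counts as gained there too.

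The leading span lost in E1-KO was on chromosome 12 at 16.53 to 18.19 Mb, and it led in E3-KO as well. It was whole in E1&E3-dKO replicate 2 (2.316) and in both WT libraries (2.081 and 2.001). The other 7 libraries split it, the E1-KO libraries into 3 TADs each, the E2-KO libraries into 7 and 5, the E3-KO libraries into 4 and 5, and E1&E3-dKO replicate 1 into 3. The 2 libraries of E1&E3-dKO thus fell on opposite sides. Further spans lost in E1-KO were on chromosome 13 at 59.94 to 61.75 Mb (1.894 and 1.987 in WT), which was lost in E1&E3-dKO too, and on chromosome 16 at 8.89 to 10.03 Mb (1.842 and 1.871 in WT). Over this last span both E1-KO libraries listed a longer TAD, at 8.4 to 10.01 Mb (1.898) and 8.39 to 10.04 Mb (1.977), which itself counts among the spans gained in E1-KO.

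The span lost in E2-KO with the highest mean score, on chromosome 12 at 83.16 to 84.26 Mb, was whole in all 8 other libraries. Its scores were 2.335 and 2.428 (E1-KO), 2.613 and 2.613 (E3-KO), 2.36 and 2.256 (E1&E3-dKO), and 2.359 and 2.486 (WT), all close to each other. Neither E2-KO library had a TAD there. The gap without TADs ran from 82.99 to 85.26 Mb in E2-KO replicate 1 and from 83.1 to 85.3 Mb in E2-KO replicate 2. In the other libraries the TAD before the span ended at 83.08 to 83.1 Mb, as it did in E2-KO replicate 2. Of the 40 spans that were whole in all 8 libraries outside E2-KO, 7 were whole in neither E2-KO library, and this was the only one without a TAD in both. It was chosen as the leading lost span by rule, and that it was empty was seen afterwards.

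The other leading spans lost in E2-KO were on chromosome 7 at 16.2 to 17.67 Mb (2.221 and 2.363 in WT) and on chromosome 17 at 38.72 to 40.05 Mb (2.06 and 2.048 in WT). Both were split in E2-KO replicate 1, into 3 and 4 TADs, and held 1 smaller TAD in E2-KO replicate 2. The 1 span gained in E2-KO was that on chromosome 17 at 7.16 to 8.36 Mb, with scores of 11.072 and 3.604. It was also whole in E1-KO replicate 2 (2.903), E3-KO replicate 2 (3.176) and E1&E3-dKO replicate 2 (2.525), and neither WT library had a TAD there. In E1-KO, E3-KO and E1&E3-dKO replicate 2 alone thus held it.

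In E3-KO the 1 gained span, on chromosome 4 at 33.46 to 34.49 Mb, had low scores (1.598 and 1.604), and its TADs were 0.89 and 0.97 Mb long in the E3-KO libraries, against 0.85 and 0.8 Mb in the WT libraries. None of these reached 1 Mb, and the call rests on the overlap limit. The TAD of E3-KO replicate 1 covered 86.4% of the span, and the WT TADs covered 79.6% and 77.7%. In E3-KO replicate 2 the TAD ran from 33.43 to 34.4 Mb. Together with a second TAD of 0.09 Mb, it covered 97.1% of the span. Besides the span on chromosome 12, the leading lost ones were on chromosome 1 at 61.04 to 63.04 Mb (1.753 and 1.854 in WT) and on chromosome 4 at 20.03 to 21.31 Mb (1.715 and 1.837 in WT). The span on chromosome 1 held 1 smaller TAD in E3-KO replicate 1 and 8 TADs in E3-KO replicate 2.

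In E1&E3-dKO the leading gained span was on chromosome X at 32.92 to 34.8 Mb, with scores of 3.192 and 3.485. It was whole in E2-KO replicate 2 as well (2.837), split into 4 TADs in E2-KO replicate 1 and without a TAD in both libraries of E1-KO, E3-KO and WT. The next gained span, on chromosome 14 at 27.1 to 28.61 Mb (2.48 and 2.546), was also whole in E1-KO replicate 1 (2.457). The leading lost spans of E1&E3-dKO were on chromosome X at 119.09 to 120.1 Mb (2.316 and 2.089 in WT), the span on chromosome 13 named above, and one on chromosome 7 at 12.17 to 13.37 Mb (1.805 and 2.065 in WT). The one on chromosome X reached 1 Mb only in E3-KO replicate 2. Its WT TADs were 0.87 and 0.88 Mb long, so that no WT TAD of 1 Mb or longer was lost there.

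Of spans that were long in at least 2 libraries, 5 were chosen for being split in most others. Besides the span on chromosome 12 at 16.53 to 18.19 Mb, they included one on chromosome 10 at 126.34 to 128.34 Mb, which was whole only in the 2 E1&E3-dKO libraries (1.922 and 2.054), with the same start and end in both. E1-KO replicate 1 split it into 2 TADs and E1-KO replicate 2 held 1 TAD there. The E2-KO libraries had 6 and 3 TADs in it, the E3-KO libraries 5 and 4, and the WT libraries 3 each. A TAD that began 0.21 to 0.27 Mb into it and ended at 0.44 or 0.45 Mb was listed in both libraries of E1-KO, E2-KO and E3-KO and in WT replicate 1.

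The other 3 lie on chromosome 10 at 110.17 to 111.42 Mb and at 43.97 to 45.1 Mb and on chromosome 18 at 35.72 to 36.97 Mb. Each was split in both WT libraries and whole in 2 or 3 knockout libraries. The span on chromosome 18 was whole in both E1-KO libraries (1.659 and 1.701) and in E1&E3-dKO replicate 1 (1.734).

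**Figure D5:**
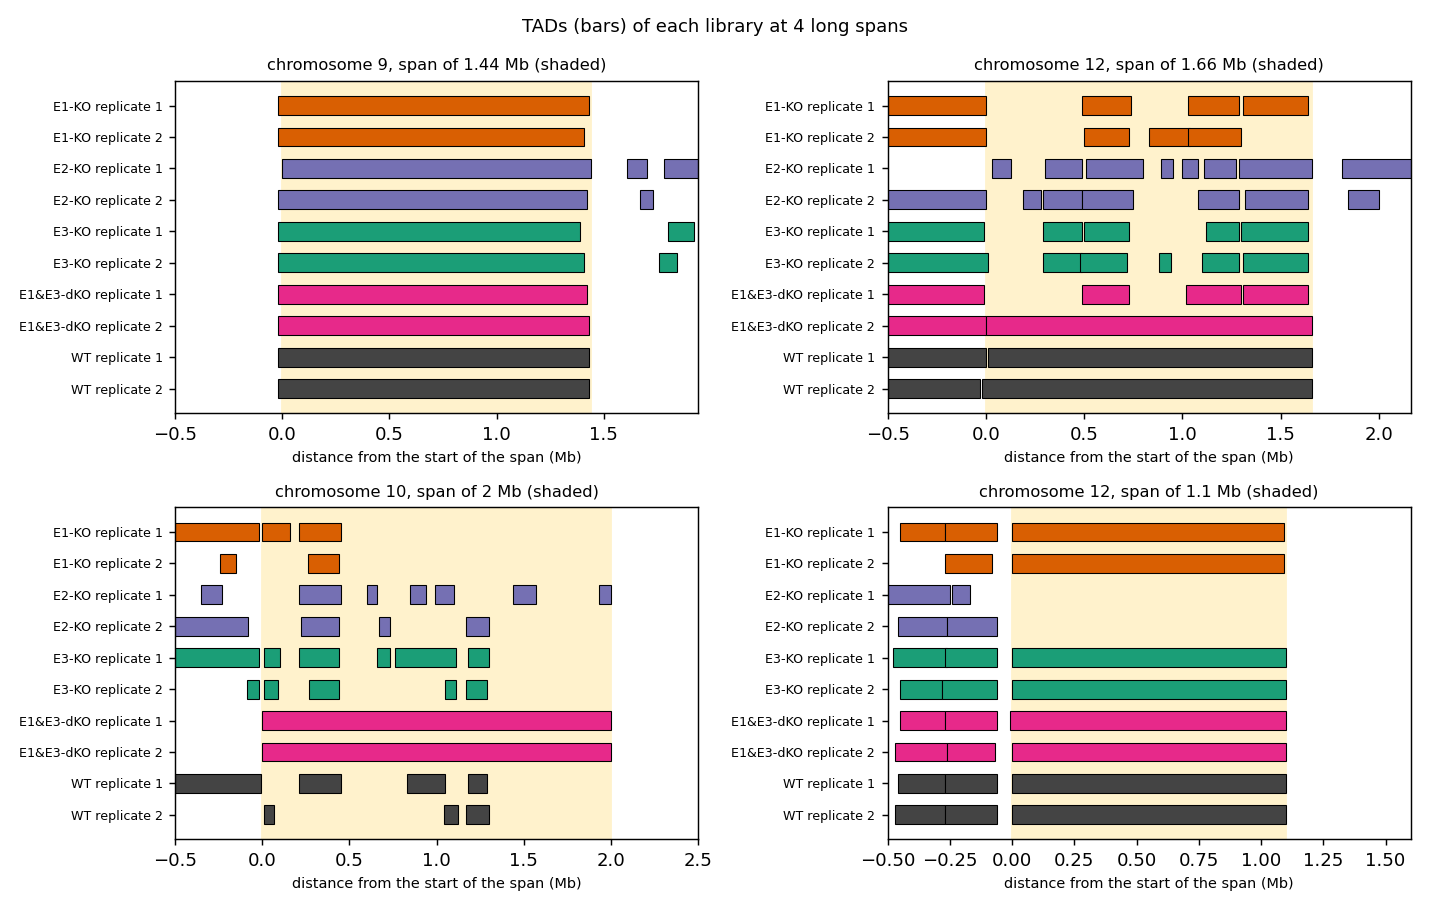
TADs (bars) listed in each library at 4 long spans (shaded), against the distance from the start of the span in Mb, with the knockout libraries above WT. The span of 1.44 Mb on chromosome 9 is whole in 10 libraries, the span of 1.66 Mb on chromosome 12 in E1&E3-dKO replicate 2 and both WT libraries, the span of 2.00 Mb on chromosome 10 in both E1&E3-dKO libraries, and the span of 1.1 Mb on chromosome 12 in all but the E2-KO libraries.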

How the data were processed

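Per the submitters' processing notes, the tools were HiC-Pro 2.10.0 and HOMER and the genome build was mm9; which tool made which list is not given in the sources used here. Each library has a deposited TAD list with the authors' score per TAD, and a deposited interaction list with an unscaled read count per pair of 10 kb bins, the authors' p-value and adjusted p-value (at most 0.01), and a bias factor per bin, a ratio to an average bin in the deposited file. The list of WT replicate 2 holds each pair in both orientations (932 lines, 466 pairs), and each was used once. Relative depth was recovered by solving each listed pair for the Poisson mean at which its read count has the p-value given, and dividing by both bias factors.

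Long TADs, the lists of spans and the tests were chosen with earlier results of these data known. The tests were exact permutations over all pairings of the libraries (smallest p 0.00106), 45 choices of 2 libraries (smallest p 0.0222) or sign flips over 10 libraries (smallest p 0.00195), and 100000 permutations for correlations, adjusted by Benjamini-Hochberg over 15 tests. The procedures were tested on simulated data (Python 3.11.15, SciPy 1.17.1). Named spans followed rules: the 5 whole in most libraries, 3 longest, 3 highest scores, 3 gained and 3 lost per knockout by mean score, and 5 split in most libraries. Alternatives were other length limits, the same number (2715) of best TADs per library, autosomes alone, other overlaps, other end distances and interaction limits, a mean score, a replicate block, and each library left out. The residual on the number of TADs, inclusion of TADs of 1.00 Mb and a block of titles were chosen after seeing the data.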

Additional observations from a re-analysis of the deposited data

Results flagged for a closer look

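Among the 8 knockout libraries, E2-KO replicate 1 lay far from the others in the median score of long TADs, at 2.363, where the next highest was 1.824. It also lay far from the other 9 libraries in the difference between the median scores of long and shorter TADs, at 0.312. In all, 10 groups of values were examined for such distant libraries, and chance marks about 1 in 20. This library had the lowest recovered depth (0.0141 contacts per pair at 1 Mb), the most TADs (7962) and only 19 long ones, and the part of these in its scores was not tested.

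The number of long TADs was above both WT libraries in both E1-KO libraries and below them in both E2-KO libraries, with means 138 apart between the knockouts. The share of spans of other genotypes kept whole showed the same order, with means 38.9 percentage points apart. Neither difference between the knockouts was tested.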

How the results depend on the processing

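Of the results recomputed under other settings, 213 stayed on the same side of the 0.05 threshold, with the same sign where they have one, 16 lost their call, 8 gained one and 1 turned round. The number of long TADs in knockouts against WT turned to 0.32 above WT (log2 scale) once the number of all TADs was taken out. With equal numbers of TADs per library the relation to that number has no value. All adjusted p that follow are from exact tests.

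Shared long TADs within genotypes lost the call for TADs of at least 1.2 Mb (3.80 points, adjusted p 0.124), the same number of best TADs (4.05, 0.0503), autosomes (3.36, 0.0529) and 90% overlap (3.76, 0.0516). Replicate numbers were not taken to pair the libraries, since over 273 windows the correlation of same-numbered deviations was over 0.1 in 5 of 10 pairs of genotypes only. It ran from -0.279 to 0.0480 in pairs with E2-KO and from 0.0873 to 0.401 in pairs without. With a replicate block the difference was 3.81 points (adjusted p 0.0762), and no other call changed with the block. Leaving out each library gave 0.80 to 11.8 points. The score difference of long and shorter TADs was 0.0724 at 1.2 Mb (adjusted p 0.124) and 0.0632 on autosomes (0.0659). The cause of these was not tested.

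The ends of long TADs passed as found more often at 800 kb (12.7 points, adjusted p 0.0293), with equal numbers of best TADs (12.1, 0.0220) and within 50 kb (13.7, 0.0176), and did not pass at the same position (4.2, 0.337). Fewer interaction ends per Mb passed at 800 kb (-0.443, 0.0293), at 1.2 Mb (-0.512, 0.00977), with equal numbers of best TADs (-0.518, 0.0410) and for interactions of 2 Mb and more (-0.116, 0.0146). They did not pass for interactions with an adjusted p of at most 0.001 (-0.151, 0.447) or those under 2 Mb (-0.289, 0.244). Leaving out each library gave -0.528 (without E2-KO replicate 1, where it passed) to -0.287. The number of reads is unknown, so how far depth limits the lists could not be measured beyond the recovered depth.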

Other observations

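Some stretches were without a TAD in both libraries of a genotype although at least 5 libraries of the others held them whole. Besides the span on chromosome 12 at 83.16 to 84.26 Mb in E2-KO, these were chromosome 18 at 83.18 to 84.75 Mb in E3-KO and chromosome 1 at 185.32 to 186.59 Mb in E1&E3-dKO, each whole in 6 other libraries. In WT they were chromosome 6 at 138.15 to 139.61 Mb and chromosome 17 at 7.16 to 8.36 Mb, each whole in 5 knockout libraries. They were chosen after their values were seen, and no test was made.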
